A study of Rattus norvegicus with 9 samples.

Results

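The 10 genes described here code for the enzymes and receptors of prostanoid signalling and for the receptor of platelet activating factor (PAF). They were taken by symbol from a table of 37203 gene symbols, as genes of 1 pathway, with no threshold on their values. The set was chosen with earlier results of these data known. They comprise the cyclooxygenases Ptgs1 and Ptgs2, the synthases Ptgis and Ptges, the prostanoid receptors Ptgir, Ptger2, Ptger3, Ptger4 and Tbxa2r, and the PAF receptor Ptafr. All 10 symbols were in the table in all 9 libraries, and 8 of them passed the filter on low counts and were tested among 15482 genes. The libraries were made from superior mesenteric arteries (SMAs) of Sprague-Dawley rats aged 8 weeks and weighing 220 to 240 g. There were 3 libraries from normal rats, 3 from rats with 1 h of ischemia and 3 from rats with 4 h of ischemia. Ischemia was produced by bleeding through a femoral artery under pentobarbital anesthesia, and time ran from completion of the model. The labels name no transgene or deletion in any group, and whether the normal rats were anesthetised or cannulated is not given in the sources used here. Each library came from a whole stretch of artery, so it held smooth muscle, endothelium, adventitia and any nerve or fat left on the vessel.

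Prostanoids are short-lived lipids made from arachidonic acid. Cyclooxygenases turn the acid into prostaglandin H2, and terminal synthases turn that intermediate into prostacyclin, prostaglandin E2, thromboxane and others, which act on G protein-coupled receptors of nearby cells. In an artery, prostacyclin relaxes smooth muscle and restrains platelets through its receptor, thromboxane contracts smooth muscle through its own, and the prostaglandin E2 receptors do either according to subtype. PAF is a separate phospholipid mediator that acts on leukocytes, platelets and endothelium through 1 receptor.

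Ptafr was the 1 member called, with lower levels in the ischemic SMAs. Ptgs2 lay higher, and its partner Ptgs1 mostly lower, so that Ptgs2 took a larger share of cyclooxygenase counts in each ischemic library than in any normal library. Tbxa2r and Ptgis varied widely between libraries together with smooth muscle markers. Ptger3 was high in the libraries that were rich in nerve transcripts, and Ptger4 was low at 4 h. Levels are given as CPM, counts scaled to a common library size, which compare libraries within a gene. They are not per length and do not rank genes against each other. Values after a mean are SD over 3 libraries. A gene was called where its edgeR adjusted p was below 0.05 and its fold change exceeded 1.5.

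Total counts ran from 13114273 to 15504240 per library, and 1 CPM stood for 12.1 to 17.9 counts. Summed smooth muscle markers (8 genes) ran from 10412 to 45715 CPM in normal, 11930 to 43642 at 1 h and 22756 to 65403 at 4 h, so the artery wall was present in each library in unequal proportion. Summed nerve markers ran from 116 to 2889 CPM in normal, 2103 to 11119 at 1 h and 273 to 10865 at 4 h. They reached 10610 and 11119 CPM in replicates 1 and 3 at 1 h and 10865 CPM in replicate 3 at 4 h, and these 3 libraries are called nerve-rich below. Lymphocyte markers summed to 49.0 CPM in normal replicate 1 and 70.8 CPM in replicate 3 at 1 h, against 0.91 to 6.02 CPM in the other 7. Other tissue was also uneven: over all libraries adipocyte markers summed to 394 to 2366 CPM, exocrine pancreas to 3.75 to 143 CPM, fibroblast to 943 to 2118 CPM, skeletal muscle to 26.8 to 203 CPM, red cell to 12.2 to 71.7 CPM, mast cell to 2.73 to 11.3 CPM and mesothelium to 0.334 to 4.82 CPM. No marker of the 14 lists was called in either contrast with normal, where edgeR called 0.0581% (1 h) and 0.0904% (4 h) of all genes. Only 1 of 7 lymphocyte, 2 of 9 neutrophil and 5 of 9 platelet markers passed the filter, while all 8 smooth muscle and all 23 nerve markers did. The absence of calls thus does not show equal tissue make-up. In whole tissue, fewer cells of a type and less RNA per cell cannot be told apart, and this holds for each gene below. Nothing in the labels says whether replicate libraries were prepared separately beyond coming from different samples, so p-values measure the spread between these libraries.

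Sequence upstream of the cyclooxygenase genes is shown first, because these genes differed in direction. The 250 bases before the annotated start were taken from RefSeq for assembly GRCr8, which is used here for sequence only, since the build behind the counts is not given in the sources used here. Motif matches on either strand are in capitals in the sequences below, which read 5′ to 3′ and end at the base before the start. Ptgs1 lies on the plus strand, with its window at chr3:39981169-39981418, and Ptgs2 on the plus strand, with its window at chr13:64713813-64714062.
Ptgs1: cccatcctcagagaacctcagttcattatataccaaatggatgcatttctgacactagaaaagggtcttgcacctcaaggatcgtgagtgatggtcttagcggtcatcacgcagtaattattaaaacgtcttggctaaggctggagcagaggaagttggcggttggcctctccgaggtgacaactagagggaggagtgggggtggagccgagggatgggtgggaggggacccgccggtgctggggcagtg
Ptgs2: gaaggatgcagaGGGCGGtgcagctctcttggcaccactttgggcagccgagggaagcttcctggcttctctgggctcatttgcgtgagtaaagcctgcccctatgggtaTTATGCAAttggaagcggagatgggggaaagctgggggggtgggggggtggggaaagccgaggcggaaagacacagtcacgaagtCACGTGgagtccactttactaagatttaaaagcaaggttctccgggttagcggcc

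The Ptgs2 window held 3 matches that did not overlap each other. They were the GC box GGGCGG, 238 to 233 bases before the start, the C/EBP core TTNNGCAA, at 140 to 133 bases, and the E-box CACGTG, at 55 to 50 bases. Among 33469 promoter windows of the same length, 30.5% held the GC box, 9.22% the C/EBP core and 5.59% this E-box. The Ptgs1 window held none of the motifs searched, which were these 3 with the TATA box TATAAA, the CRE core TGACG and the AP-1 site TGANTCA. Its GC content was 54.4%, against 57.2% for Ptgs2 and a median of 51.2% over all windows. Of the 10 members, 9 had a promoter entry, and Ptgis did not. The GC box was in 4 of the 9, the C/EBP core in 3, the CRE core in 1 (Ptafr) and the E-box in 1, and the TATA box and AP-1 letters were in none. The window of Ptafr, which gave the CRE core and 1 of the C/EBP cores, lies within the span of the gene in RefSeq, so its letters may not be upstream of all transcripts. A match is a description of letters in a window and says nothing of what binds there.

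Ptgs2 codes for the inducible cyclooxygenase. Its level was 0.056, 1.90 and 1.55 CPM in the normal libraries, 2.68, 4.41 and 6.94 CPM at 1 h, and 2.40, 2.40 and 5.88 CPM at 4 h. Each of the 6 ischemic libraries lay above each normal one, and normal replicate 1 stood lowest on a single count. Means were 1.17 ± 0.979, 4.68 ± 2.15 and 3.56 ± 2.01 CPM. Fitted log2 changes were 2.01 at 1 h (SE 0.94, 95% interval −0.14 to 4.16, edgeR adjusted p = 0.311) and 1.62 at 4 h (SE 0.93, −0.52 to 3.75, adjusted p = 0.519), so neither difference passed the test. The gene was scarce, with 1 to 113 counts per library, and its biological coefficient of variation was 75.4%.

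Ptgs1 codes for the constitutive cyclooxygenase, which endothelium and platelets use. Its level was 31.5, 36.2 and 33.1 CPM in normal, 15.8, 37.2 and 10.2 CPM at 1 h, and 16.3, 20.4 and 16.5 CPM at 4 h. The normal libraries sat close together at 33.6 ± 2.38 CPM, the 4 h libraries lay below all of them at 17.7 ± 2.31 CPM, and replicate 2 at 1 h kept a normal level while the other 2 at 1 h were low. The log2 fold change at 4 h was −0.92 (SE 0.42, −1.89 to 0.042, adjusted p = 0.422), and at 1 h it was −0.67 (SE 0.42, adjusted p = 0.392). Endothelial markers (9 genes) summed to 662 to 1551 CPM in normal, 655 to 1099 CPM at 1 h and 555 to 931 CPM at 4 h, so the groups overlapped. With the endothelial score as a covariate the log2 change of Ptgs1 was −0.66 at 1 h (adjusted p = 0.356) and −0.77 at 4 h (adjusted p = 0.522).

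The cyclooxygenase pair can be set against each other within a library, where scaling cancels. Of the Ptgs1 and Ptgs2 counts together, Ptgs2 took 0.177% in normal replicate 1 (exact binomial 95% interval 0.00449 to 0.984), 4.98% in replicate 2 (3.28 to 7.21) and 4.48% in replicate 3 (2.79 to 6.76). At 1 h the shares were 14.5% (10.6 to 19.2), 10.6% (8.30 to 13.3) and 40.5% (34.7 to 46.5). At 4 h they were 12.8% (8.76 to 17.9), 10.5% (7.18 to 14.8) and 26.3% (21.6 to 31.3). Every ischemic share lay above every normal one, and the only ischemic interval that reached a normal one was that of replicate 2 at 4 h, whose lower bound of 7.18% met the upper bound of 7.21% in normal replicate 2. The intervals cover counting error only, and transcript lengths do not enter, so a share is no ratio of molecules. Group means were 3.21 ± 2.64%, 21.9 ± 16.3% and 16.5 ± 8.49%. This share was chosen after the values were seen and is given with no test.

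**Figure D1:**
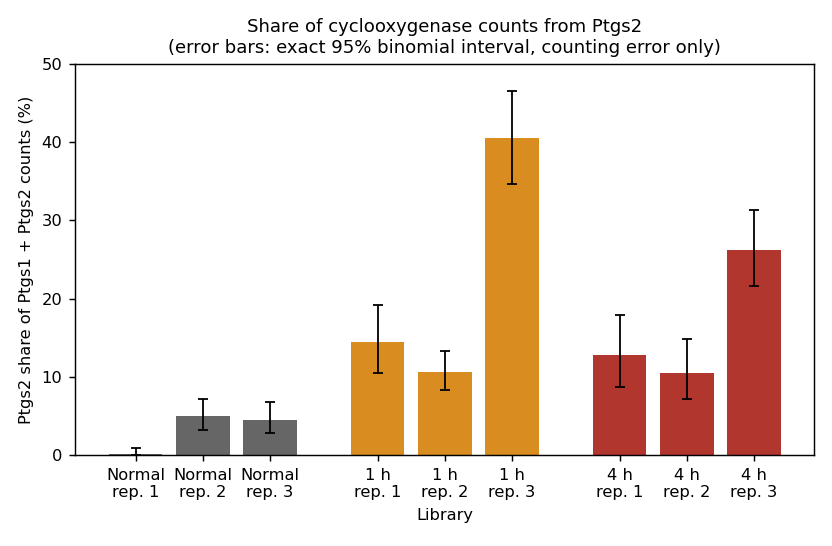
Share of the combined Ptgs1 and Ptgs2 counts taken by Ptgs2 (y axis, percent) in each of the 9 libraries, by group (x axis), with exact binomial 95% intervals as bars. The normal libraries sit at 0.177 to 4.98% and the ischemic libraries at 10.5 to 40.5%.

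Ptgis codes for prostacyclin synthase, and Tbxa2r for the thromboxane receptor, which are both abundant in vascular smooth muscle. Ptgis was at 32.9, 185 and 154 CPM in normal, 104, 221 and 53.6 CPM at 1 h, and 392, 248 and 103 CPM at 4 h. Its range within each group was wide and the groups overlapped. Its fitted log2 change was 0.03 at 1 h (SE 0.75, adjusted p = 0.986) and 1.00 at 4 h (SE 0.75, adjusted p = 0.603).

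Tbxa2r was at 7.33, 22.6 and 26.8 CPM in normal, 6.89, 10.03 and 3.19 CPM at 1 h, and 22.3, 14.8 and 6.07 CPM at 4 h. Normal replicate 1 lay within the range of the ischemic libraries, which ran from 3.19 to 22.3 CPM, so the groups overlapped. The log2 fold change was −1.49 at 1 h (SE 0.65, unadjusted p = 0.0486, edgeR adjusted p = 0.297) and −0.39 at 4 h (SE 0.63, adjusted p = 0.825). Neither passed the test. Leaving out single libraries moved the 4 h value from −0.89 (without 4 h replicate 1) to −0.022 (without 4 h replicate 3), and it also moved without any 1 of the normal libraries.

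In each group, Ptgis and Tbxa2r were lowest in the library with the lowest summed smooth muscle markers. Set against those markers, Tbxa2r gave 0.704, 0.500 and 0.587 counts per 1000 marker counts in normal, 0.289, 0.230 and 0.268 at 1 h, and 0.341, 0.319 and 0.267 at 4 h. On this scale each ischemic library lay below each normal one, with means of 0.597 ± 0.103, 0.262 ± 0.0299 and 0.309 ± 0.0382. Of all genes tested, 1.03% at 1 h and 5.24% at 4 h were separated in this direction on the same scale. Ptgis gave 3.16, 4.09 and 3.36 counts per 1000 marker counts in normal, 4.37, 5.07 and 4.50 at 1 h, and 5.99, 5.34 and 4.54 at 4 h. Here each ischemic library lay above each normal one, as did those of 1.74% of all genes at 1 h and 0.827% at 4 h. With the mean log2 level of the smooth muscle markers as a covariate in edgeR, the log2 difference of Tbxa2r was −1.21 at 1 h (SE 0.21, adjusted p = 0.0759) and −0.88 at 4 h (SE 0.22, adjusted p = 0.136). That of Ptgis was 0.42 at 1 h (SE 0.15, adjusted p = 0.177) and 0.51 at 4 h (SE 0.15, adjusted p = 0.173). None of these passed the threshold, and both the ratio and the covariate were chosen after the values were seen. With the nerve score as the covariate instead, Tbxa2r was at −0.59 at 1 h (SE 0.54, adjusted p = 0.778) and Ptgis at 1.20 (SE 0.59, adjusted p = 0.551), so both values depended on the covariate.

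Separations seen in CPM did not all hold on the smooth muscle scale. Ptgs2 stayed above normal at 1 h, but at 4 h its lowest library, at 0.0367 counts per 1000 marker counts, was below the highest normal one at 0.0421. Ptgs1 at 4 h reached 0.725 against 0.724 in the lowest normal library, and Ptger4 at 4 h reached 0.244 against 0.153. Ptger3 at 4 h also overlapped normal. Ptafr at 4 h stayed below normal, at 0.0379 to 0.165 against 0.278 to 1.59, but at 1 h it reached 0.469 and overlapped. The raised normal values of Ptgs1, Ptger4 and Ptafr on this scale were in replicate 1, the library with the fewest smooth muscle marker transcripts.

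**Figure D2:**
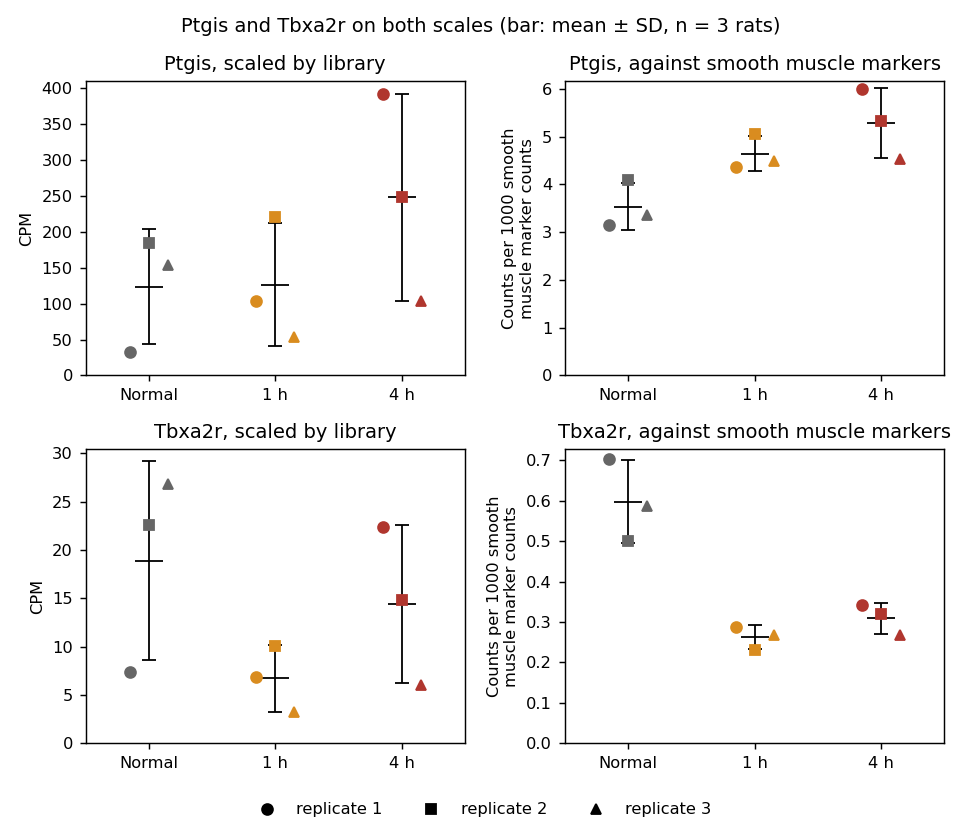
Counts of Tbxa2r and of Ptgis per 1000 counts of 8 smooth muscle marker genes (y axes) in each library, by group (x axis), with the mean and SD. Tbxa2r lies at 0.500 to 0.704 in normal and 0.230 to 0.341 in ischemic libraries, and Ptgis at 3.16 to 4.09 against 4.37 to 5.99.

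Ptgir, the prostacyclin receptor, was at 7.17, 8.03 and 3.77 CPM in normal, 3.41, 13.2 and 8.17 CPM at 1 h, and 4.63, 5.97 and 5.02 CPM at 4 h. The groups overlapped throughout. The log2 fold change was 0.39 at 1 h (SE 0.49, adjusted p = 0.682) and −0.28 at 4 h (SE 0.49, adjusted p = 0.840), and its sign turned with single libraries, as given in the closing section.

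Ptges codes for the inducible microsomal synthase of prostaglandin E2 and was near the limit of counting. It had 7, 5 and 5 counts in normal, 4, 7 and 55 at 1 h, and 4, 4 and 9 at 4 h. Replicate 3 at 1 h, at 3.38 CPM, stood apart from the other 8 libraries at 0.268 to 0.594 CPM. The same library had the highest Ptgs2 level and the highest sums of lymphocyte, macrophage (252 CPM), neutrophil (80.7 CPM) and nerve (11119 CPM) markers. Lcn2 gave 77.8 CPM of the neutrophil sum. Csf3r and Mmp9 were also highest there, but S100a8 and S100a9 were higher in replicate 2 at 4 h. Of the macrophage markers only Lyz2 (111 CPM) and Cd14 (38.1 CPM) were highest there, and the others were higher in normal replicate 1. Normal replicate 1, with macrophage markers at 245 CPM and lymphocyte markers at 49.0 CPM, had Ptges at 0.392 CPM. The part of any of these tissues in the Ptges value was not tested. Ptges did not pass the filter and was not tested.

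Ptger2, a prostaglandin E2 receptor that raises cyclic AMP, had 9, 3 and 0 counts in normal, 18, 9 and 18 at 1 h, and 0, 5 and 7 at 4 h. The libraries with 0 counts allow up to 0.222 CPM in normal replicate 3 and 0.248 CPM in replicate 1 at 4 h, from 3 counts. In CPM the 1 h libraries, at 0.602 to 1.20, lay above all normal ones, at 0 to 0.504, and above all 4 h ones, at 0 to 0.462. The gene did not pass the filter, so this separation at very low counts has no test.

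Ptger4, the other prostaglandin E2 receptor that raises cyclic AMP, was at 6.89, 10.5 and 7.02 CPM in normal, 6.96, 16.2 and 9.95 CPM at 1 h, and 3.31, 2.57 and 5.55 CPM at 4 h. The 4 h libraries lay below all the others, and the normal and 1 h libraries overlapped. The log2 fold change at 4 h was −1.09 (SE 0.42, −2.05 to −0.13, unadjusted p = 0.0301, edgeR adjusted p = 0.339). Between 4 h and 1 h it was −1.53 (SE 0.42, −2.50 to −0.57, unadjusted p = 0.0062, adjusted p = 0.856), which ranked 13 among all genes by p in that contrast. At 1 h it was 0.44 (SE 0.41, adjusted p = 0.569). None passed the threshold.

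Ptger3, a prostaglandin E2 receptor that lowers cyclic AMP and is known on sympathetic nerve endings as well as smooth muscle, was at 6.38, 4.74 and 8.42 CPM in normal. It was at 26.5, 6.22 and 17.4 CPM at 1 h and 9.59, 8.54 and 23.3 CPM at 4 h. The 3 highest values were those of the 3 nerve-rich libraries, while the 4 h libraries also lay above all the normal ones. The log2 fold change was 1.36 at 1 h (SE 0.58, unadjusted p = 0.0460, edgeR adjusted p = 0.295) and 1.08 at 4 h (SE 0.58, adjusted p = 0.484). With a score of the nerve markers as a covariate it was 0.43 at 1 h (SE 0.50) and 0.87 at 4 h (SE 0.40). The value at 1 h was thus less than its own standard error once libraries were compared at equal nerve score.

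Ptafr codes for the PAF receptor, found on monocytes, neutrophils, platelets and endothelium. It was at 16.5, 12.99 and 12.7 CPM in normal (295, 178 and 172 counts), 4.35, 5.48 and 5.59 CPM at 1 h (65, 82 and 91 counts), and 2.48, 2.57 and 3.76 CPM at 4 h (30, 31 and 57 counts). No group overlapped another: every 1 h library lay below every normal one, and every 4 h library below every 1 h one. Means were 14.1 ± 2.12, 5.14 ± 0.688 and 2.94 ± 0.716 CPM. At 4 h the level was 4.77-fold lower than in normal, a log2 change of −2.25 (SE 0.28, −2.89 to −1.62, edgeR adjusted p = 0.0353), which was called and ranked 13 of all genes by p. At 1 h it was 2.73-fold lower, a log2 change of −1.45 (SE 0.27, −2.06 to −0.84, unadjusted p = 0.000543, adjusted p = 0.138), which was not called. Between 4 h and 1 h the log2 change was −0.80 (SE 0.27, −1.41 to −0.19, unadjusted p = 0.0162, adjusted p = 0.856).

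The call of Ptafr at 4 h was close to its threshold while the size of the difference was stable. Leaving out each library in turn gave log2 fold changes of −2.47 to −2.12 with adjusted p from 0.0412 to 0.193, and the call was kept only without replicate 3 at 4 h and lost without any of the other 8 libraries. Over all 21 alternatives the call was kept in 7, with adjusted p from 2.13e-11 in DESeq2 to 0.273. The 7 include the setting with no minimum fold, which used the same fit and could not lose this call. Macrophage markers (9 genes, none at 0 in all libraries) summed to 61.6 to 245 CPM in normal, 123 to 252 CPM at 1 h and 48.4 to 141 CPM at 4 h, with overlap between all groups. With their score as a covariate Ptafr was at −2.08 at 4 h (adjusted p = 0.0493), and with the endothelial score at −2.10 (adjusted p = 0.0513). Neutrophil markers summed to 6.06 to 10.7 CPM in normal, 14.1 to 80.7 CPM at 1 h and 3.31 to 49.9 CPM at 4 h, most of it Lcn2, and S100a8 was at 0 in all 3 normal libraries. Platelet markers summed to 24.9 to 35.5 CPM in normal and 18.7 to 33.8 CPM at 1 h, and to 106 CPM in replicate 2 at 4 h against 27.1 and 23.0 CPM in its other libraries.

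**Figure D3:**
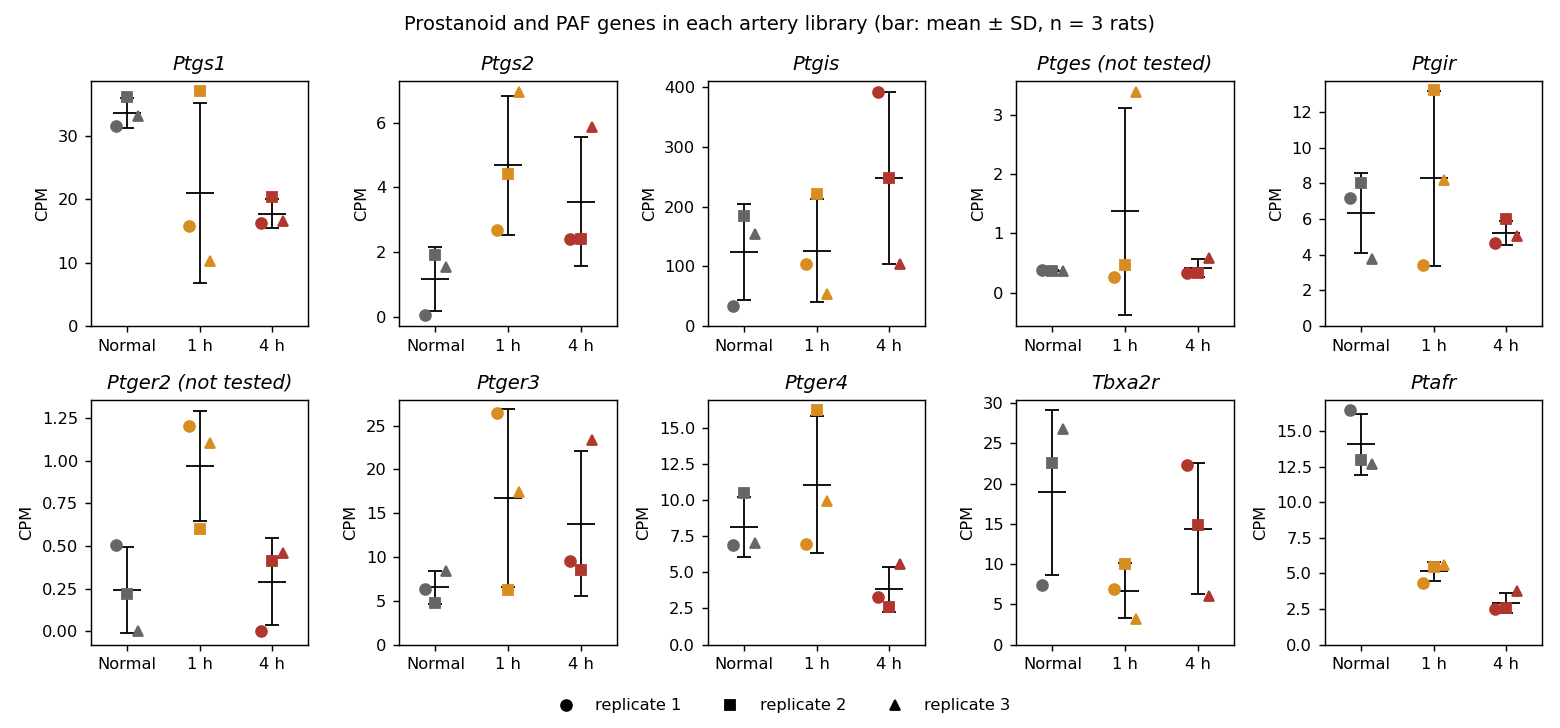
Levels of the 10 genes (y axes, CPM with scaled library sizes, 1 panel a gene) in the 3 libraries of each group (x axis), with the mean and SD. Ptafr lies at 12.7 to 16.5 CPM in normal and 2.48 to 3.76 CPM at 4 h, and Ptgs2 at 1.90 CPM or less in normal and 2.40 CPM or more in ischemic libraries.

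The members were chosen with earlier results of these data known, so the counts and shares that follow are a description and no test of the set. Counted together, 1 of the 8 tested members was called at 4 h (Ptafr, lower), against 0.0904% of all genes tested, or 0.0258% in the lower direction. At 1 h edgeR called 0 members, against 0.0581% of all genes. There 3 had an unadjusted p under 0.05, against 16.7% of all genes, and DESeq2 called 1, against 4.53% of all genes. Of the 3, Ptger3 was higher, as were 7.98% of all genes by that p, and Tbxa2r and Ptafr were lower, as were 8.67%. At 4 h 2 members (Ptger4 and Ptafr) had such a p, both lower, against 12.4% of all genes, or 7.35% in that direction. Between 4 h and 1 h edgeR and DESeq2 called 0 members and 0% of all genes, while 2 members (Ptger4 and Ptafr, both lower) had an unadjusted p under 0.05, against 2.58% of all genes, or 1.25% in that direction. The counts by unadjusted p became 1 to 4 at 1 h, 1 to 4 at 4 h and 1 to 3 between 4 h and 1 h when single libraries were left out. They fell to 1 at 1 h without normal replicate 2 or 3 or 1 h replicate 1 or 3, and to 1 at 4 h without normal replicate 2 or 4 h replicate 1 or 2, against 4 there without 1 h replicate 2, and to 1 between 4 h and 1 h without 1 h replicate 3 or 4 h replicate 2.

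Among the 8 tested members, libraries that did not overlap between groups gave 1 higher and 1 lower at 1 h (Ptgs2 and Ptafr), where 12.8% and 13.5% of all genes did so. At 4 h there were 2 higher (Ptgs2 and Ptger3) and 3 lower (Ptgs1, Ptger4 and Ptafr), against 7.93% and 10.8% of all genes. From 1 h to 4 h there were 2 lower (Ptger4 and Ptafr), against 3.04%. Ptger2, which was not tested, also lay higher at 1 h than in normal and lower at 4 h than at 1 h without overlap. The median log2 fold change of the 8 was 0.21 at 1 h, −0.34 at 4 h and −0.33 between 4 h and 1 h, where the medians of all genes were −0.0076, 0.027 and −0.040. The members' differences thus lay on both sides of 0. The contrasts with normal share the normal libraries, so they are not separate evidence for a gene. Since the members were chosen with earlier results known, the shares without overlap are no test of the set either.

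**Figure D4:**
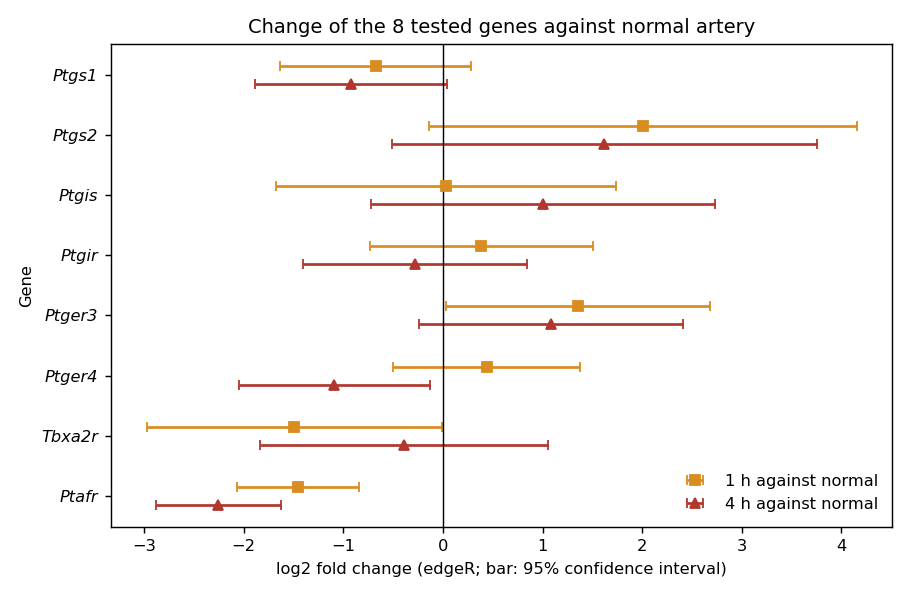
Log2 fold changes of the 8 tested genes (x axis) with 95% intervals from edgeR, for 1 h against normal and 4 h against normal. The interval of Ptafr lies below 0 in both contrasts, at −2.25 (−2.89 to −1.62) for 4 h against normal.

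The surrounding pathway was read from lists of 133 further genes, of which 130 were in the table and 109 were tested. At 4 h 1 of the 109 was called, the nuclear receptor gene Nr4a1, against 0.0904% of all genes. There 15 had an unadjusted p under 0.05, 9 higher and 6 lower, where 5.07% and 7.35% of all genes were so. DESeq2 called 7 there, against 3.94% of all genes. At 1 h edgeR called 0, against 0.0581% of all genes. There 22 had an unadjusted p under 0.05 (17 higher and 5 lower, where 7.98% and 8.67% of all genes were so). DESeq2 made 9 calls at 1 h, against 4.53% of all genes. Between 4 h and 1 h edgeR and DESeq2 called 0, with 3 at an unadjusted p under 0.05, against 2.58% of all genes. Of these counts, the 22 became 13 without normal replicate 2 and 14 without 1 h replicate 3. The 15 became 10 without normal replicate 1 and 17 without 1 h replicate 1. The 3 became 0 without 1 h replicate 3, 1 without 4 h replicate 1 or 2, 5 without normal replicate 1, 6 without 1 h replicate 2 and 21 without 4 h replicate 3. The median log2 fold change was 0.19 at 1 h and 0.05 at 4 h, against −0.0076 and 0.027 over all genes. The counts by list below are to be read beside the same shares of all genes. Since the lists were chosen with earlier results of these data known, none of these counts is a test of a list.

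Upstream of the cyclooxygenases, arachidonic acid is freed by phospholipases and by lipases that act on its glycerol esters. Of 18 tested genes of this list, 3 were lower and 2 higher at 1 h by unadjusted p, and 2 were lower at 4 h, with median log2 fold changes of 0.02 and −0.16. Abhd6, a monoacylglycerol lipase, was at 17.6, 20.1 and 21.6 CPM in normal, 11.04, 8.89 and 11.1 CPM at 1 h, and 11.6, 13.8 and 10.7 CPM at 4 h. All ischemic libraries lay below all normal ones, with log2 fold changes of −0.93 (SE 0.20, edgeR adjusted p = 0.168) and −0.72 (SE 0.20, adjusted p = 0.201). The cytosolic phospholipase gene Pla2g4b likewise had means of 20.8 ± 5.37, 10.8 ± 1.11 and 11.7 ± 3.33 CPM, with adjusted p of 0.232 and 0.291.

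Among 6 other prostanoid synthases tested, 0 had an unadjusted p under 0.05 at 1 h, and 1 was higher and 1 lower at 4 h. Ptges3, the cytosolic prostaglandin E synthase and a chaperone partner, was at 108 ± 12.8, 134 ± 7.21 and 141 ± 11.4 CPM, with no overlap between normal and ischemic libraries. At 4 h its log2 change was 0.38 (SE 0.16, adjusted p = 0.378). Akr1c14, an aldo-keto reductase whose counts may be shared with near-identical family members, was at 30.2 ± 11.9 CPM in normal and 13.8 ± 3.72 CPM at 4 h, with a log2 change of −1.13 (SE 0.33, adjusted p = 0.223). Fam213b, a prostaglandin F synthase, was at 2.10 ± 0.614, 3.56 ± 0.378 and 2.61 ± 1.14 CPM.

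Of the 5 other receptors tested, Ppard, a nuclear receptor proposed to bind prostacyclin, was the 1 with an unadjusted p under 0.05 at either time. Its means were 33.6 ± 2.45, 70.0 ± 32.1 and 55.9 ± 4.61 CPM, with every ischemic library above every normal one and adjusted p of 0.228 and 0.385. The prostaglandin transport and breakdown list gave 0 of 7 genes at an unadjusted p under 0.05 in edgeR in any contrast, and its medians were 0.37 at 1 h and −0.32 at 4 h.

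PAF is made by remodelling lysophospholipids and broken down by acetylhydrolases. Of 17 tested genes of its synthesis and breakdown, 5 were higher and 1 lower at 1 h by unadjusted p, and 1 was lower at 4 h. Lpcat1, which codes for an acyltransferase that can make PAF, was the lower one at both times. It was at 30.0, 27.4 and 32.4 CPM in normal, 18.9, 14.4 and 18.1 CPM at 1 h, and 23.8, 19.2 and 19.9 CPM at 4 h, with log2 fold changes of −0.80 (SE 0.18, edgeR adjusted p = 0.188) and −0.51 (SE 0.18, adjusted p = 0.309). Like Ptafr, it had no overlap between ischemic and normal libraries, but its 4 h values lay above its 1 h values. Pafah1b1, a subunit of the intracellular PAF acetylhydrolase, was at 200 ± 13.4, 415 ± 80.5 and 319 ± 165 CPM. Its 3 nerve-rich libraries, at 456, 467 and 509 CPM, were the highest, and the log2 fold change at 1 h was 1.06 (SE 0.35, adjusted p = 0.251).

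In the leukotriene and lipoxygenase branch, 1 of 9 tested genes was lower at 1 h and 1 at 4 h by unadjusted p. These were the 12-lipoxygenase gene Alox12, with −2.20 for its log2 change at 1 h (SE 0.87, adjusted p = 0.285), and the leukotriene receptor gene Cysltr1, at −2.004 at 4 h (SE 0.66, adjusted p = 0.271). Cysltr1 was at 28.9 CPM in the lymphocyte-rich normal replicate 1 and 7.74 and 9.31 CPM in the other normal libraries, and its log2 change was −1.16 without that library. The G protein and effector list had 3 of 35 genes higher at 1 h, and 1 higher and 1 lower at 4 h, by unadjusted p. Adcy4, an adenylyl cyclase prominent in endothelium, was the lower one, at 59.9, 43.9 and 27.8 CPM in normal and 20.9, 21.6 and 18.2 CPM at 4 h. Its log2 change there was −1.12 (SE 0.27, adjusted p = 0.162). Adcy2 had a log2 change of 3.26 at 1 h (SE 1.14, adjusted p = 0.261), and its level in the 3 nerve-rich libraries was 33.7 to 34.5 CPM.

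Genes that cyclic AMP and prostanoids are known to induce, among many other stimuli, had 6 of 12 tested higher and 0 lower by unadjusted p at 1 h. The counts at 4 h were the same, from a contrast that shares the normal libraries. This list was chosen with earlier results of these data known, so its counts are a description and no test of induction. Over all genes 7.98% were higher at 1 h and 5.07% at 4 h by that p. The medians were 0.98 and 1.18. Nr4a1 was at 112, 76.3 and 95.1 CPM in normal, 650, 905 and 396 CPM at 1 h, and 1765, 1623 and 776 CPM at 4 h. All ischemic libraries lay above all normal ones. Its log2 fold change was 2.78 at 1 h (SE 0.43, edgeR adjusted p = 0.117) and 3.88 at 4 h (SE 0.46, adjusted p = 0.0316), which was called. That call was kept without 1 h replicate 2 or 4 h replicate 3 and lost without any of the other 7 libraries, with log2 changes of 3.64 to 4.17. Nr4a3, its family member, had means of 11.4 ± 6.28, 95.3 ± 77.8 and 58.9 ± 19.8 CPM (adjusted p = 0.188 and 0.220). Pde4b, which breaks down cyclic AMP, had 22.6 ± 5.59, 160 ± 135 and 88.7 ± 15.6 CPM (adjusted p = 0.180 and 0.240). The level of these genes is no measure of prostanoid action, since many signals raise them.

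**Figure D5:**
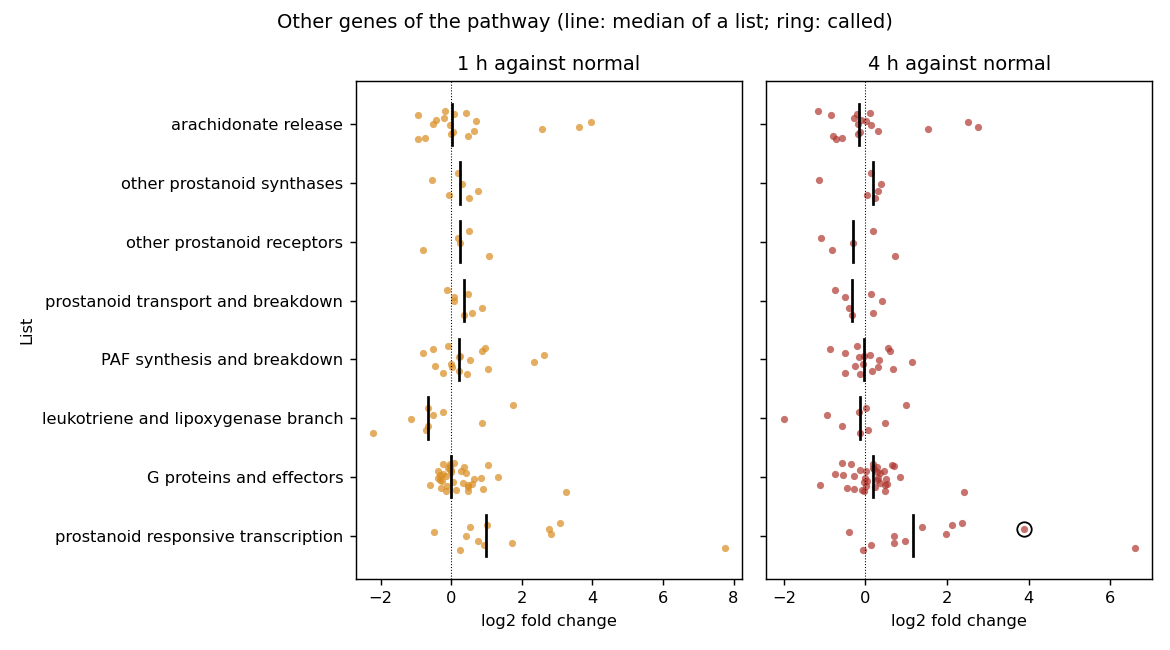
Log2 fold changes of the tested genes of each pathway list (points, x axis) by list (y axis), at 1 h and at 4 h against normal. Lines are list medians, which lie at 0.98 and 1.18 for the prostanoid responsive transcription list and between −0.65 and 0.37 at 1 h and −0.32 and 0.20 at 4 h for the others, and the ring marks Nr4a1.

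Genes with the most similar patterns over the 9 libraries were sought for Ptafr and Ptgs2 among 11280 genes averaging at least 5 CPM, by Pearson correlation of log2 CPM. Those most like Ptafr were Hoxd4 (0.980), Zbtb26 (0.977), Rbak (0.973), Axin2 (0.964) and Golph3l (0.959). Those most like Ptgs2 were Pir (0.970), Ppm1e (0.949), Dgkb (0.947), Nol10 (0.938) and Nifk (0.938), and each of these was lowest in normal replicate 1, where Ptgs2 had its single count. The points are 9 libraries in 3 groups that share depth and tissue make-up, and the values are a description.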

How the data were processed

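SMA transcripts were measured in 9 libraries, 3 per group, and groups were taken from the sample labels. The authors deposited whole-number counts per gene symbol, with Trizol RNA and Illumina sequencing per the labels. The submitters' processing notes name HISAT2 without a version, and the counting program, genome build, annotation and use of strand are not given in the sources used here. Whether reads from genes that overlap on opposite strands were separated is thus not known. The study's methods also describe Agilent microarrays for these samples, but the values are counts and were tested as such. Of 37203 symbols, 13156 had no count.

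Genes were filtered with filterByExpr, scaled by TMM (factors 0.814 to 1.22) and tested in R 4.3.3 with edgeR 4.0.16 (glmQLFit and glmQLFTest) over all 9 libraries, with group as the only term. P-values were two-sided and adjusted by Benjamini-Hochberg over 15482 genes. SE is the log2 fold change over the square root of F. Log2 CPM used a prior count of 2. The common biological coefficient of variation was 51.6%. An exact permutation test of 3 against 3 cannot go below p = 0.1 and was not used. No library was a copy of another (lowest chi-square per degree of freedom 29.9). The scripts were tested on simulated data.

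Members and lists were chosen with earlier results of these data known. Beyond the members and called genes, each list's 2 genes with the smallest unadjusted p at each time, averaging at least 1 CPM, could be named. Marker lists were smooth muscle, endothelium, macrophage, neutrophil, platelet, lymphocyte, nerve, mast cell, fibroblast, mesothelium, adipocyte, exocrine pancreas, skeletal muscle and red cell. Alternatives were DESeq2 1.42.0, other scaling, no filter, no minimum fold, only the groups compared, a replicate block, a nerve covariate and leaving out each library. Smooth muscle, macrophage and endothelial covariates, and omission of both lymphocyte-rich libraries, were added after seeing the data. Promoters were from RefSeq (GRCr8).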

Additional observations from a re-analysis of the deposited data

Results flagged for a closer look

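Gna12, which codes for a G protein alpha subunit, was singled out because all 1 h libraries lay below the mean of the normal libraries and all 4 h libraries above it. It was at 177, 174 and 213 CPM in normal, 174, 187 and 171 CPM at 1 h, and 214, 227 and 196 CPM at 4 h. The log2 difference between 4 h and 1 h was 0.26 (SE 0.16, edgeR adjusted p = 0.856). The selection itself was not a test of that difference, and the difference did not pass edgeR's test.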

How the results depend on the processing

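Over 56 log2 fold changes there were 1176 alternative values, of which 1121 kept their direction and side of the threshold. Of the others, 26 lost the call, 10 gained it and 19 turned direction. The setting with no minimum fold used the main fit, so its values could neither turn direction nor lose a call. The 1 called member at 4 h (Ptafr) became 0 with library size only, no filter, the replicate block, only the groups compared, the endothelial covariate and without both lymphocyte-rich libraries, and ranged from 0 to 1 when single libraries were left out. DESeq2 called 1 member at 1 h in place of 0. Of the pathway genes DESeq2 called 9 at 1 h in place of 0 and 7 at 4 h in place of 1. At 4 h the count was 0 with the replicate block, only the groups compared, the macrophage or endothelial covariate, and without both lymphocyte-rich libraries, and 0 to 1 on leaving out single libraries. Over all genes DESeq2 called 702 at 1 h and 610 at 4 h against 9 and 14 in edgeR. Scaling by library size only moved the median over all genes to −0.15 at 4 h and −0.24 between 4 h and 1 h. The cause of these differences was not tested.

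Direction turned for Ptgis at 1 h (−0.16 with the replicate block, −0.089 without both lymphocyte-rich libraries, −0.65 to 0.40 on leaving out single libraries) and at 4 h (−0.0062 with the macrophage covariate), and between 4 h and 1 h (−0.12 with the nerve and −0.22 with the macrophage covariate). Ptgir turned at 1 h on leaving out single libraries (−0.13 to 0.76) and at 4 h with the endothelial covariate (0.16). Ptgfrn turned at 1 h with the nerve covariate (−0.16). Pparg turned at 4 h without both lymphocyte-rich libraries (0.16) and on leaving out single libraries (−1.54 to 0.16). Between 4 h and 1 h, Ptger3 turned with the nerve (0.44), smooth muscle (0.00039) and macrophage (0.078) covariates and on leaving out single libraries (−0.88 to 0.23), Ptgs1 did so on leaving out single libraries (−0.56 to 0.45), and Ptgs2 did so there (−0.96 to 0.030) and without both lymphocyte-rich libraries (0.030).

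Replicate numbers are shared between groups, but nothing in the labels pairs them. Deviations of same-numbered libraries correlated above 0.1 in 4 of 9 pairs (−0.65 to 0.66), and 4 of 9 libraries correlated best with their own number. With the replicate block 7 genes were called at 1 h and 7 at 4 h. Low counts limit Ptges, Ptger2 and Ptgs2 most.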

Other observations

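Of 9 platelet markers, 6 (Itga2b, Gp1ba, Gp9, Pf4, Ppbp and Gp6) were highest in replicate 2 at 4 h. Pf4, a chemokine of platelet granules, was at 40.2 CPM there against 0.924 to 5.10 CPM elsewhere. Itga2b, the platelet integrin, was at 29.9 CPM against 2.88 to 6.61 CPM, and Gp9, a subunit of the platelet von Willebrand factor receptor, was at 3.07 CPM against at most 0.112 CPM. The other 3 markers were not highest there: Itgb3 was at 20.2 CPM against 22.5 CPM in normal replicate 3, P2ry12 at 6.22 CPM against 10.02 CPM in normal replicate 1, and Tubb1 at 0.497 CPM against 0.517 CPM in normal replicate 3. Some of the genes described above are expressed by platelets. Of these, Ptgs1 in this library was at 20.4 CPM against 16.3 and 16.5 CPM in the other 4 h libraries. Ptgir was at 5.97 CPM against 4.63 and 5.02 CPM. Alox12 was at 6.47 CPM, its highest level in the 9 libraries, against 1.65 and 0.726 CPM. It was at 5.54 CPM in normal replicate 1. Tbxa2r was at 14.8 CPM, between 22.3 and 6.07 CPM, and Ptafr was at 2.57 CPM, between 2.48 and 3.76 CPM. The part of platelets in these values was not tested.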
